A study of Macaca fascicularis with 64 samples.

Results

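Pancreatic β-cells of cynomolgus monkeys (Macaca fascicularis) with much RNA were compared with β-cells of the same monkeys with little RNA. The islet cells came from 16 healthy, non-diabetic animals, 8 of them young (4 to 6 years) and 8 old (18 to 21 years), and both ages were made up of 4 females and 4 males. Islets were picked by hand from the tail of the pancreas and dissociated, debris was removed by a sort, and single cells were taken with a mouth pipette into a modified STRT-seq protocol, in which every transcript carries a cell barcode and a unique molecular identifier (UMI) and spike-in RNAs are added to each cell. No treatment or genetic change was used. Each monkey was processed on a day of its own, so that monkey and day cannot be told apart.

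A retained cell held over 800 macaque genes and over 10000 UMIs. A β-cell was a retained cell in which INS, the gene of insulin, was the highest of the 4 hormone genes INS, GCG, SST and PPY, with at least 20000 CPM (UMIs of a gene scaled to 1000000 macaque UMIs) and at least 2 times the second hormone. This rule took 1086 of the 5908 retained cells (18.4%), 456 from young and 630 from old monkeys, and the 6141 deposited barcodes included the cells left out. RNA content was the number of macaque UMIs divided by the number of spike-in UMIs (ERCC and RGC rows) of the same cell. Monkeys with at least 20 β-cells entered the comparisons, which left 13 monkeys (6 young and 7 old) with 1045 β-cells, and 3 monkeys, young female 2, young female 3 and old male 4, were left out with 8, 16 and 17 β-cells. In each monkey the cells were ranked by content and cut into tertiles, which gave 344 cells in the top tertile, 357 in the middle and 344 in the bottom tertile, with 7 to 63 cells per monkey in the top tertile.

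β-cells make insulin as preproinsulin, which enters the endoplasmic reticulum, is folded and cut by prohormone convertases, and is stored in granules with granins and amyloid. Glucose enters through transporters and is broken down, and ATP made by the mitochondria closes potassium channels and starts secretion. The mitochondrial genome codes for core subunits of the respiratory chain and of ATP synthase, and the remaining subunits are coded in the nucleus. The amount of RNA in a cell is known to follow its size and its transcriptional output, and a spike-in added in equal amounts to each cell turns UMI counts into a relative amount.

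Depth was high and uneven. Retained cells gave 21982838 to 35850398 UMIs per monkey. The β-cells held a median of 76826 macaque UMIs (10271 to 284637), 3514 spike-in UMIs (70 to 22106) and 4714 genes. ERCC rows made up almost all spike-in UMIs, since 1080 of the 1086 β-cells had no RGC UMI. The 64 libraries used the same set of cell barcodes and no cell name occurred in more than 1 library. Doublets were not called, and β-cells were also compared without those above the 95th percentile of UMIs. GCG, the gene of glucagon and the hormone of α-cells, was present throughout: INS exceeded the second hormone by a median of 3.46 times, and only 20 β-cells passed a limit of 10 times.

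The label was checked against markers of islet cells. IAPP, which codes for the amyloid peptide stored with insulin, lay between 810 and 5148 CPM in the bottom tertile and between 940 and 4933 CPM in the top tertile, and every sum held reads of MAFA, NKX6-1 and SLC2A2. RXRG, ERO1B and TMEM132B of the same list were also present in every sum, but other members were near 0. ADCYAP1 had a median of 0 CPM in both tertiles and at most 0.31 and 1.88 CPM. DLK1 had medians of 0 and 1.26 CPM, and PDX1 was at 0.68 CPM in its lowest bottom tertile. Markers of cells outside the islet were low in most monkeys but not in all, and their part in the results was not tested. The 6 acinar markers in the files summed to at most 150 CPM in any bottom tertile and 8.92 CPM in any top tertile, and the 6 ductal markers to at most 65.9 and 72.2 CPM. The 8 stellate markers reached 154 and 377 CPM, the 6 endothelial markers 23.6 and 249 CPM and the 9 immune markers 380 and 291 CPM. The δ-cell list summed to 49.8 to 1928 CPM in the bottom and 11.8 to 1665 CPM in the top tertile, the PP-cell list to 24.3 to 3732 and 27.9 to 5037 CPM, and GHRL, the marker of ε-cells, to at most 738 and 895 CPM. The tertiles overlapped for each of these lists, which were higher in the top tertile in 2 to 10 of the 13 monkeys. The β-cell list, most of it INS, summed to 61250 to 106100 CPM and 44650 to 86410 CPM, and the α-cell list, most of it GCG and TTR, to 40390 to 83080 and 30470 to 74310 CPM, lower in the top tertile in all 13 monkeys.

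The content of a β-cell was 21.5 macaque UMIs per spike-in UMI in the median, with 12.2 at the 5th and 36.6 at the 95th percentile, and the extremes were 2.53 and 351. Of the spread of log2 content in the 13 monkeys, 27.1% lay between monkeys, 5.35% between libraries of a monkey and 67.6% between cells of a library. The boundaries of the tertiles cut a continuous distribution. The lowest cell of the middle tertile exceeded the highest cell of the bottom tertile by a median of 1.01 times and at most 1.06 times, and the cells on both sides of the upper boundary differed by at most 1.05 times. At the edge of the cell rule, the lowest ratio of INS to the second hormone inside was 2.01 and the highest outside was 1.996, and 127 cells with INS highest lay between 1 and 2 times.

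**Figure D1:**
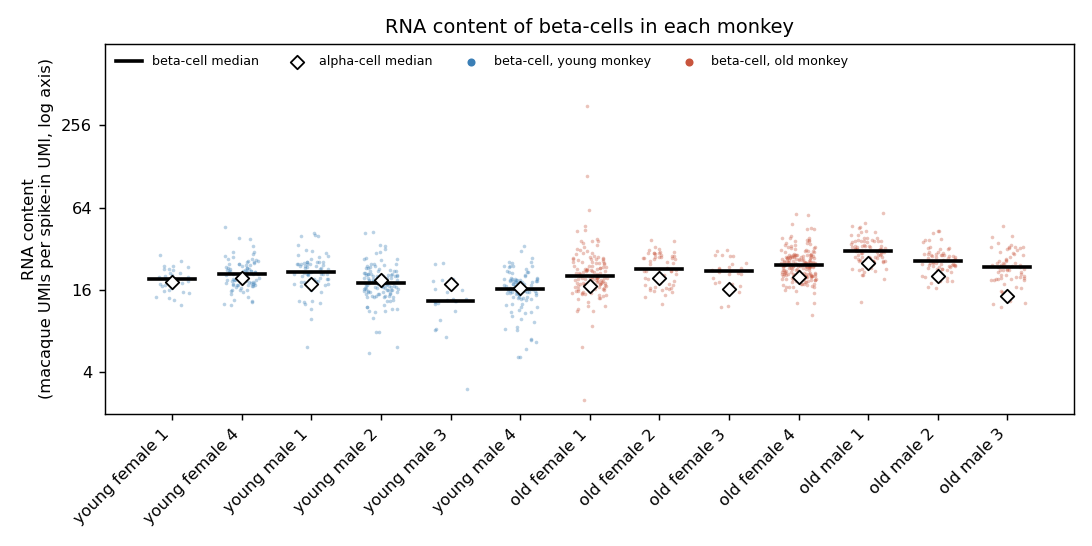
RNA content (macaque UMIs per spike-in UMI, log axis) of each β-cell in the 13 monkeys compared, with the β-cell median (bar) and the α-cell median (diamond). The 7 old monkeys had β-cell medians between 20.4 and 31.0 and the 6 young monkeys between 13.3 and 21.6.

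β-cells of old monkeys held more RNA per spike-in UMI than β-cells of young monkeys. The median content per monkey was 13.3 at the lowest, 18.5 in the middle and 21.6 at the highest among the 6 young monkeys. Among the 7 old monkeys it was 20.4, 23.6 and 31.0. Among the 13 monkeys compared, the groups overlapped only at their edge. Of the 7 old monkeys, 6 lay above the highest young monkey, young male 1, and old female 1 lay below it and below young female 4. Old male 4, left out for its few β-cells, had a median content of 17.2, below the young median of 18.5. Young female 2 and young female 3, also left out, had medians of 20.1 and 16.4. On the log2 scale the 6 young monkeys averaged 4.17 ± 0.26 (SD) and the 7 old monkeys 4.59 ± 0.20 (SD), a difference of 0.42 or 1.34-fold (exact permutation test over monkeys, two-sided, p = 0.0035, where the smallest p is 0.00058). Permuting ages within each sex gave p = 0.00571. With all 16 monkeys, old male 4 included, the log2 difference was 0.36 (exact permutation p = 0.0095). Libraries I3 and I4 alone gave a difference of 0.38 with p = 0.0857 over the monkeys that kept 20 β-cells, and libraries I1 and I2 alone 0.37 with p = 0.026 (both exact permutation tests).

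The difference was larger in males than in females in size, but the difference between the sexes was not tested. The 4 young males had log2 contents of 3.74 to 4.43 and the 3 old males compared of 4.56 to 4.95, without overlap. The difference was 0.65 (exact permutation p = 0.0571). Old male 4, which was left out, had a log2 content of 4.10, inside the range of the young males. The 2 young females had median contents of 19.2 and 21.1 and the 4 old females of 20.4 to 24.2, which overlapped, a log2 difference of 0.15 (exact permutation p = 0.267, where the smallest p for females is 0.0667). Of the parts of the ratio, macaque UMIs differed more in size than spike-in UMIs. Median macaque UMIs per β-cell were 1.28-fold higher in old monkeys (exact permutation p = 0.0915), and median spike-in UMIs were 0.894 times those of young monkeys (exact permutation p = 0.413).

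α-cells of the same monkeys, chosen by the mirrored rule with GCG, gave no detectable age difference. Their median content was 16.6 to 19.7 in the 6 young monkeys and 14.5 to 24.98 in the 7 old monkeys, a log2 difference of 0.04 (exact permutation p = 0.712). The difference between β-cells and α-cells of the same monkey, which share a day, was set against age next. β-cells minus α-cells gave a log2 difference of -0.42 at the lowest, 0.02 in the median and 0.29 at the highest in young monkeys, and 0.21, 0.31 and 0.70 in old monkeys. All 7 old monkeys had more RNA in β-cells than in α-cells, against 3 of 6 young monkeys, and 4 of 7 old monkeys lay above the highest young monkey. The means were -0.01 ± 0.24 and 0.36 ± 0.17 (SD), which differed by 0.38 (exact permutation p = 0.0035). Over all 13 monkeys, β-cells exceeded α-cells by 0.19 on the log2 scale, or 1.14-fold, in 10 of 13 monkeys (exact sign-flip test, two-sided, p = 0.0303), and leaving out any of 7 of the monkeys moved this p to between 0.0503 and 0.0605.

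The spread of content within a monkey did not differ detectably with age. The SD of log2 content over the β-cells of a monkey was 0.30 to 0.65 in young and 0.31 to 0.69 in old monkeys, averaging 0.46 ± 0.12 over the young and 0.41 ± 0.13 over the old (exact permutation p = 0.519). Old female 1 had the widest spread of all and held the cells with the lowest and the highest content.

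Within a monkey, the top tertile differed from the bottom tertile more in spike-in UMIs than in macaque UMIs. These quantities define the tertiles and are given without a test. Median content per monkey was 8.28 to 25.4 in the bottom and 19.0 to 37.1 in the top tertile, a ratio of 1.58 in the median monkey (1.46 to 2.30). Macaque UMIs per cell were higher in the top tertile in 10 of 13 monkeys, with a median ratio of 1.20 (0.775 to 2.03). Spike-in UMIs were lower in the top tertile in all 13 monkeys, with a median ratio of 0.627 (0.484 to 0.965).

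Cells of the top tertile also showed more genes at equal depth. With each cell thinned to 10000 UMIs, the median number of genes per cell was 1086 to 2659 in the bottom tertile and 1624 to 2940 in the top tertile, higher in 12 of 13 monkeys, with a median ratio of 1.10. Without thinning, the numbers were 1848 to 5238 and 3416 to 6475, higher in 11 of 13. Young male 3 stood apart: it had 23 β-cells, 7 in each of the top and bottom tertile, and its bottom tertile had the lowest content (8.28), the fewest genes (1848) and 27879 macaque UMIs per cell.

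**Figure D2:**
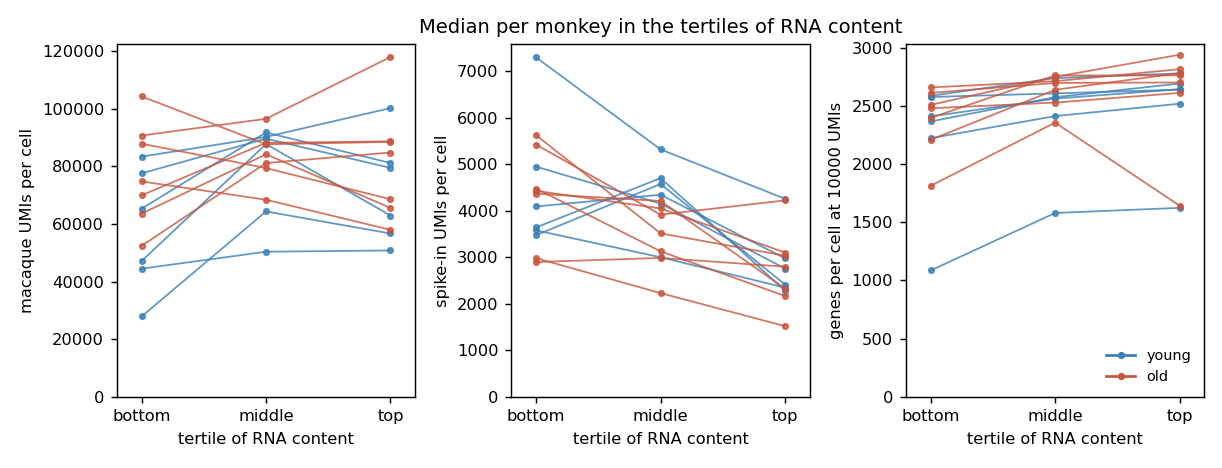
Median macaque UMIs, spike-in UMIs and genes at 10000 UMIs per cell in the bottom, middle and top tertile of RNA content, with 1 line per monkey coloured by age. Spike-in UMIs were lower at the top than at the bottom in all 13 monkeys, and macaque UMIs were higher in 10 of 13.

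For gene levels, the UMIs of the cells of a tertile were summed in each monkey and compared as CPM (after TMM scaling) in edgeR with monkey as a block. Of 8693 genes tested, 6 passed an adjusted p of 0.05, all lower in the top tertile (0.069% of the genes tested), and none was higher (0%). They were COX3, COX2, ATP6 and CYTB, which are coded by the mitochondrial genome, and TTR and INS. At an unadjusted p under 0.05, 231 genes were higher (2.66%) and 102 lower (1.17%), 3.83% in all, and DESeq2 called 2 genes higher and 5 lower, of which 4 were among the 6. The rule for β-cells used INS itself, so its place among the 6 is a description and no finding. In at least 90% of the monkeys, 0.713% of the genes tested were higher and 0.23% lower in the top tertile. Per spike-in UMI, 98.9% of the genes tested were higher in the top tertile, as the rule makes them, by 1.85-fold in the median gene, against 1.29-fold for COX3, 1.27-fold for COX2, 1.37-fold for ATP6, 1.38-fold for CYTB, 1.51-fold for TTR and 1.501-fold for INS.

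**Figure D3:**
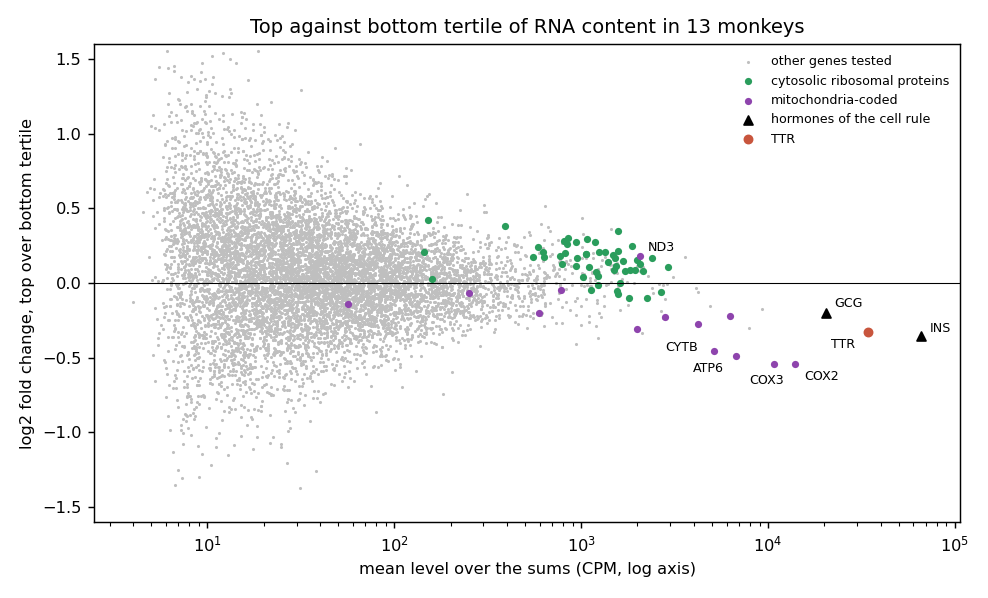
Log2 fold change of the top over the bottom tertile against mean level (CPM, log axis) for the 8693 genes tested in 13 monkeys, with 12 genes beyond 1.6 not drawn. The mitochondria-coded genes (purple) lie below 0 but for ND3, and 45 of 52 genes of cytosolic ribosomal proteins (green) lie above 0 without passing the test.

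COX3, a core subunit of cytochrome c oxidase, was at 2397 CPM in the lowest monkey, 14115 in the median and 19631 in the highest in the bottom tertile. In the top tertile it was at 2585, 9046 and 13538 CPM. The ranges overlapped between monkeys, but within a monkey COX3 was lower in the top tertile in 12 of 13. The log2 fold change was -0.54 ± 0.06 (SE), with an adjusted p of 5.4e-05 (edgeR quasi-likelihood test, Benjamini-Hochberg).

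COX2, which codes for a copper-binding subunit of the same enzyme, was at 29.7, 16697 and 47953 CPM in the bottom tertile and at 21.5, 11046 and 21625 CPM in the top tertile. It was lower in the top tertile in 12 of 13 monkeys (log2 fold change -0.54 ± 0.09 SE, edgeR adjusted p = 0.0039). The lowest values belonged to young male 1 and old male 1, which stood far below the other monkeys in both tertiles. Over all β-cells COX2 was at 28.3 CPM in young male 1 and 604 CPM in old male 1 against 10100 to 26320 CPM in the other 11 monkeys, and α-cells showed the same at 22.9 and 459 CPM against 5391 to 12650 CPM. COX3 (3294 and 2376 CPM) and ND3 (72.8 and 94.99 CPM) were low in β-cells of the same 2 monkeys. Without these 2 monkeys the log2 fold change was -0.64 for COX2 and -0.60 for COX3, and the same 6 genes were called.

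ATP6, a subunit of the proton channel of ATP synthase, was at 3418, 7281 and 13052 CPM in the bottom tertile and at 3152, 5368 and 8722 CPM in the top tertile. It was lower in 12 of 13 monkeys (log2 fold change -0.49 ± 0.06 SE, edgeR adjusted p = 0.00016). CYTB, a cytochrome of complex III, was at 3106, 5574 and 12387 CPM in the bottom tertile and at 2330, 3855 and 8538 CPM in the top tertile, and was lower in all 13 monkeys (log2 fold change -0.46 ± 0.06 SE, edgeR adjusted p = 0.00016).

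The 13 mitochondria-coded genes were all tested, 12 had a log2 fold change below 0 and 4 passed the test, and the median was -0.22 against 0.04 for all genes tested. Above 0 were 7.69% of them and 56.1% of all genes tested. Besides the 4 named above, the subunits of complex I spread from ND5 at -0.31 ± 0.08 (SE), ND1 at -0.27 ± 0.06, ND4 at -0.22 ± 0.08, ND2 at -0.22 ± 0.06 and ND6 at -0.20 ± 0.09 to ND4L at -0.07 ± 0.16, none of which passed. COX1 was at -0.04 ± 0.10, ATP8 at -0.14 ± 0.26, and ND3 alone was above 0 at 0.18 ± 0.10. The genes summed to 23720 CPM in the lowest, 69030 in the median and 105500 in the highest monkey in the bottom tertile, and to 24040, 47580 and 65140 CPM in the top tertile, lower in 12 of 13 monkeys. The mitochondria-coded share of UMIs in the median cell was 2.46% to 10.6% across monkeys in the bottom tertile and 2.25% to 6.72% in the top tertile, lower in all 13. With library totals in place of TMM the median of all genes was higher by 0.07, and that of the mitochondria-coded genes was -0.14. Depth, genes per cell and spike-in UMIs moved with the tertiles beside these genes, and values at matched depth are given further on.

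The nucleus-coded subunits of the respiratory chain and ATP synthase gave no call. All 46 were tested, 20 were above (43.5%, against 56.1% of all genes tested) and 26 below 0, none passed, and the median was -0.01.

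**Figure D4:**
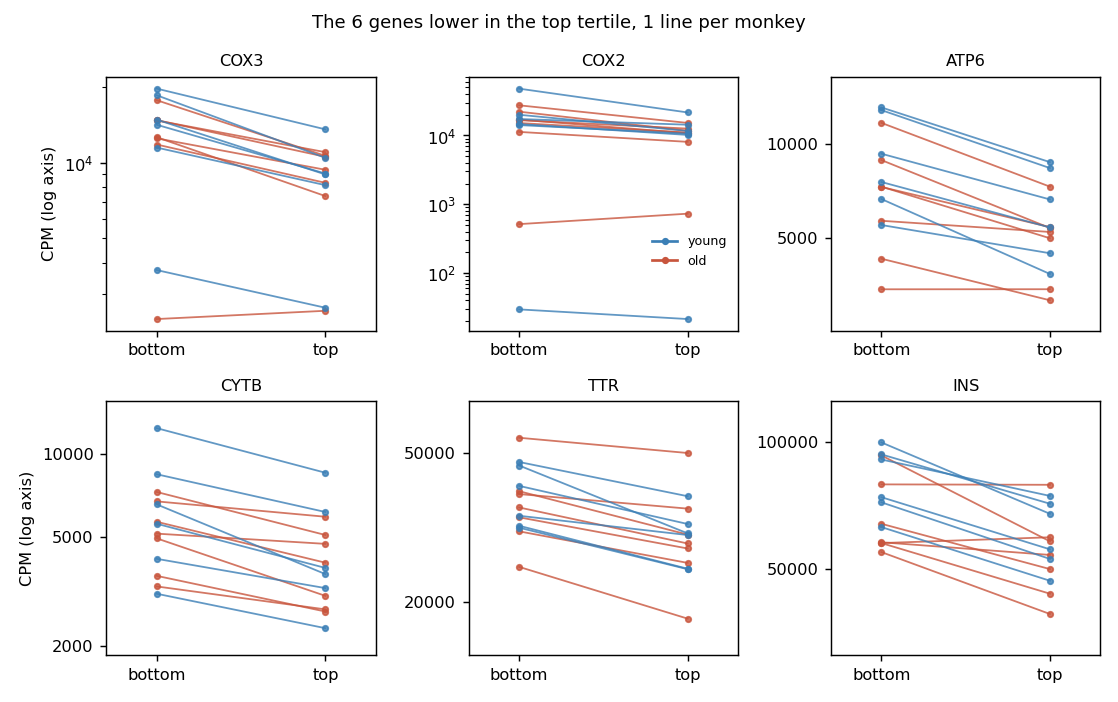
CPM (log axis) in the bottom and top tertile for the 6 genes called, with 1 line per monkey coloured by age. CYTB and TTR were lower in 13 of 13 monkeys and COX3, COX2, ATP6 and INS in 12 of 13, and the 2 low lines of COX2 are young male 1 and old male 1.

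TTR, which codes for transthyretin, a hormone carrier that islet cells express strongly, was at 24786, 35730 and 54875 CPM in the bottom tertile and at 18023, 30152 and 49953 CPM in the top tertile. It was lower in all 13 monkeys (log2 fold change -0.33 ± 0.04 SE, edgeR adjusted p = 7.7e-05). Of 21 alternatives other than leaving out a single monkey, 14 called TTR. DESeq2 did not call it, nor did edgeR with libraries I1 and I2 alone, while libraries I3 and I4 alone did. INS, which the rule for β-cells used, was at 54930, 72046 and 99874 CPM in the bottom tertile and at 39198, 55769 and 79272 CPM in the top tertile, lower in 12 of 13 monkeys. The other hormones of the rule are given as levels too. GCG was at 14069, 19730 and 36573 CPM in the bottom and 11697, 18616 and 27613 CPM in the top tertile, lower in 10 of 13 monkeys. SST, the gene of somatostatin, had medians of 267 and 340 CPM and PPY, the gene of pancreatic polypeptide, of 156 and 267 CPM, each higher in 8 of 13.

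UMI numbers of INS levelled off with depth. With the β-cells of all 13 monkeys pooled and divided into 8 equal parts by macaque UMIs, the median cell rose 6.65-fold in macaque UMIs from the lowest to the highest part, from 25628 to 170310. The median of INS rose 1.92-fold, from 3433 to 6594 UMIs, and no cell held more than 7611. GCG rose 3.09-fold, TTR 4.03-fold, COX2 5.09-fold, ATP6 6.39-fold, COX3 6.49-fold and CYTB 8.23-fold, whereas IAPP rose 15.1-fold, RPL37, of the ribosome, 15.9-fold and CHGB 12.2-fold. Spike-in UMIs rose 5.56-fold, and the abundant spike-ins ERCC-00130 and ERCC-00074 4.85-fold and 4.88-fold. The parts hold different monkeys in different shares, so depth and monkey cannot be told apart in these folds. The rule for β-cells sets INS against GCG, and the ratio of their medians was lower in the deepest than in the shallowest part. Whether the rule left out deep cells more often was not tested.

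**Figure D5:**
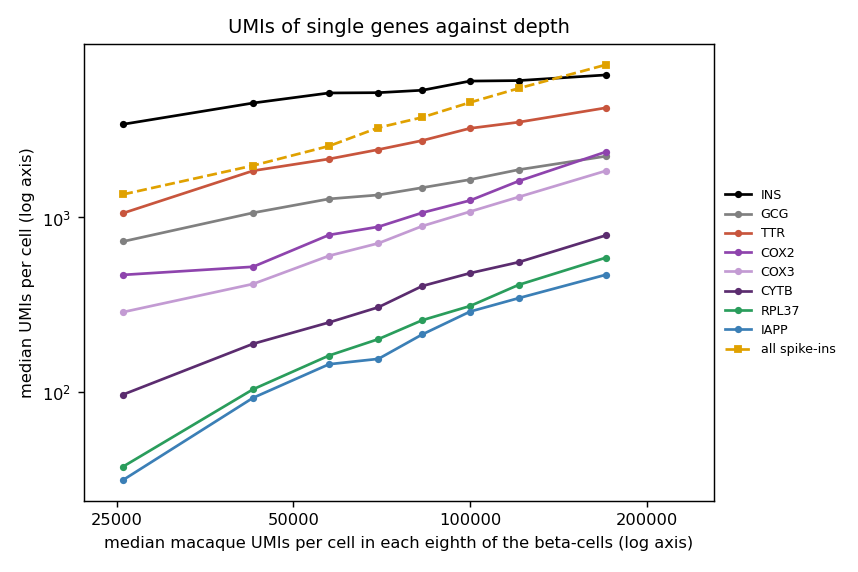
Median UMIs per cell of single genes and of all spike-ins against median macaque UMIs in 8 equal parts of the β-cells (both axes log). INS flattens between 5195 and 6594 UMIs, TTR and GCG rise less steeply than the depth, and IAPP rises more steeply.

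The fold changes were therefore also taken between cells of matched depth, with the highest and the lowest content picked in blocks of 3 cells of a monkey that neighboured each other in macaque UMIs. The gap in content between cells picked from blocks is not given and need not equal that between the tertiles. A smaller fold change at matched depth, here or below, can therefore not be assigned to depth. The 4 mitochondria-coded genes were still called, with log2 fold changes of -0.40 for COX3, -0.34 for COX2, -0.38 for ATP6 and -0.35 for CYTB (edgeR adjusted p between 8.12e-06 and 0.00275). TTR was at -0.15 (edgeR adjusted p = 0.31) and was not called, and INS, given as a description, was at -0.10. With every cell thinned to 10000 UMIs, the 4 mitochondria-coded genes were called again, and TTR at -0.21 was not. With blocks of neighbouring spike-in UMIs instead, these 4 genes and TTR were called, beside the rule's own hormones INS and GCG, which are no finding. When content was computed only from genes and spike-ins with a mean of at most 100 UMIs per β-cell, which left out 94 genes and 9 spike-ins and kept 67.4% of the cells of the top tertile in it, COX3 alone was called at -0.31 (edgeR adjusted p = 0.0089), CYTB was at -0.31 and ATP6 at -0.27 (both adjusted p = 0.0602) and COX2 at -0.25. Among β-cells with INS at least 3 times the second hormone, 693 cells in 10 monkeys, no gene was called, and COX3 was at -0.35 (edgeR adjusted p = 0.0954).

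Genes of cytosolic ribosomal proteins, the protein part of the ribosome, leaned to the top tertile without passing the test. Of 52 tested, 45 (86.5%) were above 0 against 56.1% of all genes tested, with a median of 0.16 against 0.04, and 15 of them had an unadjusted p under 0.05 in that direction (2.66% of all genes). The 4 furthest from 0 were RPL26L1 at 0.42 ± 0.19 (SE), RPL23 at 0.38 ± 0.17, RPS23 at 0.35 ± 0.12 and RPS25 at 0.30 ± 0.09. RPS25 was at 456, 718 and 1141 CPM in the bottom and 599, 902 and 1204 CPM in the top tertile, higher in 10 of 13 monkeys (edgeR adjusted p = 0.998). The median of the list was 0.08 at matched depth, 0.19 with cells thinned, 0.05 with features of at most 100 UMIs and 0.24 with library totals, where the medians of all genes were 0.00, 0.01, 0.02 and 0.12. Translation factors were centred on 0 with a median of -0.01 over 30 genes, and genes of ribosome biogenesis at -0.13 over 20.

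Genes of insulin synthesis and export gave no call apart from INS, which the rule used. Of 24 chaperones and oxidoreductases of the endoplasmic reticulum, 15 were above 0 (62.5%, against 56.1% of all genes tested) with a median of 0.07. HSPA5, the chaperone that holds folding proteins in the reticulum, had medians of 681 and 679 CPM (log2 fold change 0.06 ± 0.10 SE), HSP90B1 1279 and 1062 CPM (-0.15 ± 0.09) and CALR, a calcium-binding chaperone, 239 and 318 CPM (0.31 ± 0.15). The medians were 0.09 for 17 genes of degradation from the reticulum, 0.05 for 27 genes of the translocon and signal peptides and 0.08 for 35 genes of transport to the Golgi.

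Among 18 granins and processing enzymes, 12 were above 0 (66.7%, against 56.1% of all genes tested) with a median of 0.08. PCSK1, the convertase that makes the first cuts in proinsulin, was at 38.0, 222 and 528 CPM in the bottom tertile and 144, 276 and 692 CPM in the top tertile, higher in 11 of 13 monkeys (0.48 ± 0.20 SE, edgeR adjusted p = 0.998). PCSK2 was at -0.08 ± 0.14, and the granins CHGA, CHGB and SCG2 at 0.09 ± 0.12, -0.11 ± 0.09 and 0.18 ± 0.16. IAPP had medians of 2534 and 2395 CPM (-0.02 ± 0.10).

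Transcription factors of β-cell identity were not called in either direction. Of 13 tested, 5 were above 0 (38.5%, against 56.1% of all genes tested), with a median of -0.03. MAFA, which drives the insulin gene in mature β-cells, was at -0.33 ± 0.25 (SE), NKX2-2 at -0.23 ± 0.24, NKX6-1 at 0.10 ± 0.17 and PDX1, which had a median of 6.42 CPM in the bottom tertile, at 0.69 ± 0.49. Of 18 genes of stimulus and secretion, 8 were above 0 (44.4%), with a median of -0.01. SLC2A2, the glucose transporter GLUT2, had medians of 821 and 639 CPM and was lower in 10 of 13 monkeys (-0.22 ± 0.12), and VAMP2, a protein of granule fusion, was lower in all 13 (0.23% of all genes were lower in at least 90% of monkeys, log2 fold change -0.40 ± 0.20), where the adjusted p of both in edgeR was 0.998. VAMP2 was at 0.03 with cells thinned and at 0.11 among β-cells with INS at least 3 times the second hormone, so its direction turned. TMEM132B, from the list of β-cell markers, was at -0.38 ± 0.16.

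Stress genes gave no call. The 12 heat shock genes tested were all above 0, against 56.1% of all genes tested, with a median of 0.11, which was 0.00 at matched depth. Immediate-early genes, which respond to stimuli and to cell handling within minutes, were above 0 in 10 of 11 (90.9%), with a median of 0.20 and 0.16 at matched depth. FOS had medians of 176 and 239 CPM (0.31 ± 0.19 SE) and EGR1 of 175 and 171 CPM (0.20 ± 0.16), and JUN had no row under that symbol. The ATF4 targets had a median of -0.04 over 11 genes, with DDIT3 at -0.28 ± 0.42, and TXNIP, which glucose induces, was at -0.01 ± 0.25. The antioxidant enzymes were centred on 0.00 over 18 genes, with GPX1 at 0.54 ± 0.26 and GPX2 at 0.43 ± 0.19.

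Of 14 histone and chromatin genes, 11 were below 0 (21.4% above 0, against 56.1% of all genes tested), with a median of -0.15. CHD4, a subunit of a remodelling complex, had medians of 238 and 153 CPM (-0.59 ± 0.24 SE) and HMGN3, a nucleosome-binding protein, of 1033 and 843 CPM (-0.28 ± 0.10), and neither passed. The inflammation list had a median of 0.23 over 10 genes, with IFI6, an interferon target, at 0.39 ± 0.17, and 0.01 at matched depth. The medians of the lists for the proteasome (0.03), splicing (0.03), RNA polymerase II (-0.04), cytoskeleton (0.00), lysosome (0.06), glycolysis (0.13), sterol and fatty acid synthesis (0.14) and cell death (-0.06) were within 0.14 of 0, and none of their genes passed. For proliferation and nuclear-retained RNA 1 gene each was tested, at -0.03 and -0.26.

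Whether content went with other genes in old than in young β-cells was tested as an interaction of tertile and age. No gene of 8693 passed in edgeR (0%), and none did in DESeq2, while 238 genes (2.74%) had an unadjusted p under 0.05 in edgeR and 527 in DESeq2. For the 6 genes, the fitted log2 fold change of old monkeys minus that of young monkeys ran from 0.10 ± 0.08 (SE) for TTR to 0.18 ± 0.12 for COX3.

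The same ranking was made in α-cells, with 1462 cells in each of the top and bottom tertile of 16 monkeys. There 91 of 11116 genes were called higher (0.819%) and 11 lower (0.099%). COX3 at -0.32 (edgeR adjusted p = 0.00042), COX2 at -0.23 (0.039) and ND5 at -0.21 (0.021) were among the lower genes, and ATP6 was at -0.16 (0.080) and CYTB at -0.14 (0.13). Genes of ribosomal proteins made up 20 of the 91 higher genes, out of 52 of them tested in α-cells. Their median was 0.17, against 0.01 for all genes tested in α-cells. TTR was at -0.10 (0.26). The difference between β-cells and α-cells was tested as an interaction in the monkeys compared. No gene of 11408 passed in edgeR (0%), 431 (3.78%) had an unadjusted p under 0.05, and DESeq2 called 1 gene higher and 1 lower, KIT and KLHDC1, which were named after their values were seen. INS was used by both cell rules, so its difference is no finding, and apart from it the removal of a single monkey gave 1 call, SLC2A2 without young female 1. Among the genes called in β-cells the difference, β-cells minus α-cells, was -0.34 ± 0.11 (SE) for COX2 and -0.23 ± 0.08 for COX3 (edgeR adjusted p = 0.997 for both), -0.32 ± 0.08 for ATP6 (0.596), -0.32 ± 0.07 for CYTB (0.312) and -0.21 ± 0.06 for TTR (0.596). Without a filter on low counts, COX2, ATP6 and TTR were called lower in edgeR. No gene was called with cells thinned to 10000 UMIs, nor with α-cells reduced to the number of β-cells. For RPS25 the difference was 0.11 ± 0.10 (0.997).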

How the data were processed

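The deposited files held UMI counts per gene and cell, which the authors made by trimming template-switch, poly(A) and adapter sequence, aligning with TopHat 2.0.12 to Macaca_fascicularis_5.0, counting unique reads with htseq-count and counting each UMI once. CASAVA 1.8 is also named in the submitters' processing notes. Spike-in rows were kept out of CPM and of all tests.

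UMIs were summed per monkey and tertile and tested in edgeR 4.0.16 (R 4.3.3, TMM, filterByExpr, quasi-likelihood, monkey as a block, Benjamini-Hochberg), with DESeq2 1.42.0 as an alternative. The block holds because both sums come from the same animal. Values of monkeys were compared with exact permutation tests in Python 3.11.15. On simulated counts of 8544 genes at these depths, edgeR called 71.4% of 35 genes of at least 50 CPM changed by 1 on the log2 scale, 4.88% of 41 changed by 0.5 and 0.0359% of 8347 unchanged genes.

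The members, lists and rules were chosen with earlier results of these data known. Named genes were those called with a mean of at least 50 CPM and the same sign in 90% of monkeys, up to 4 per list furthest from 0, and a fixed set of β-cell genes, of which 1 is not reported here. No genome of the build of the files was used, so no coordinates are given.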

Additional observations from a re-analysis of the deposited data

Results flagged for a closer look

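In groups of 4 to 10 monkeys a monkey was singled out where its gap to the next exceeded Dixon's 95% limit, which chance exceeds in about 1 in 20 groups, and 25 of 102 groups were singled out. Young male 3, with 7 cells per tertile, accounted for most of them. Its log2 ratio of content between the top and the bottom tertile was 1.20, against 0.60 to 0.82 in the other young monkeys. Its log2 ratio of CPM was -3.62 for MAFA, 1.78 for NKX6-1, 8.13 for NKX2-2, -1.44 for SCG2, 4.17 for PCSK1, 1.58 for PCSK2, 2.77 for DDIT3, 3.06 for RPL26L1, 3.41 for RPL23, 2.19 for CALR, 6.34 for GPX1, -4.03 for CHD4 and 2.58 for IFI6. NKX2-2 had no UMI in its bottom tertile, so that this ratio rests on an added 0.5 CPM. Leaving out young male 3 kept the same 6 genes called.

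Old male 1 was the exception for the mitochondria-coded COX2, with a log2 ratio of 0.50 against -0.92 to -0.41 in the other old monkeys, and for COX3, with 0.11 against -0.77 to -0.41. It also had the highest ratio for FOS, at 2.68. Young male 4 was lowest for FOS at -0.57 and for ND1 at -0.62. Old female 2 stood apart for MAFA at -1.42, SLC2A2 at -1.03 and RPL26L1 at 1.22, old male 2 for PCSK2 at 0.35 and old male 3 for RPS23 at 0.75. Old female 1 had an SD of log2 content of 0.69, against 0.31 to 0.42 in the other old monkeys.

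The difference in log2 content between β-cells and α-cells was larger in old than in young monkeys by 0.38 (exact permutation p = 0.0035), positive in 7 of 7 old and 3 of 6 young monkeys.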

How the results depend on the processing

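The age difference in content kept its direction under every alternative, from 0.31 with the authors' list of β-cells to 0.47 with features of at most 100 UMIs, and lost its p with libraries I3 and I4 (0.38, p = 0.0857) and with macaque UMIs in place of content (0.35, p = 0.0915), both exact permutation tests. Leaving out each monkey gave 0.33 to 0.47, for β-cells against α-cells 0.15 to 0.24 and for the spread in old minus young monkeys -0.09 to -0.01. The count of genes lower in the top tertile was 3 with libraries I1 and I2, 2 with I3 and I4, 1 with features of at most 100 UMIs, 0 with INS at least 3 times the second hormone, 0 with no replicate block, and 6 to 7 without each monkey. The count of higher genes was 1 with over 2000 genes and over 20000 UMIs, 2 with DESeq2 and 2 with no filter on low counts, and 0 without each monkey. For the difference between β-cells and α-cells DESeq2 gave 1 higher and 1 lower, no filter 1 higher and 5 lower, and leaving out each monkey 0 to 2 lower and 0 higher. Named genes that were not called as reported stayed uncalled in all but 5 of their alternatives, 3 for GCG and 2 for ND1, in the same direction. VAMP2 changed sign with cells thinned (0.03) and with INS at least 3 times the second hormone (0.11), and GPX2 with features of at most 100 UMIs (-0.24). The cause of these changes was not tested. A limit of 10 times the second hormone left 20 β-cells, and RGC spike-ins alone were absent from 1080 β-cells, so neither gave a value. Scaling by totals moved the median of all genes from 0.04 to 0.12. The settings on matched UMIs, features of at most 100 UMIs and 3 times the second hormone, and the removal of young male 1 and old male 1, were chosen after seeing the data.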

Other observations

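Mitochondria-coded genes differed between monkeys in both cell types. Young male 1 and old male 1 lay outside the range of the other 11 monkeys in β-cells for COX1, COX2, COX3, ND2, ND3, ND5 and ATP6. ATP6 was above that range in young male 1 at 11100 CPM and below it in old male 1 at 3360 CPM, against 3747 to 9517 CPM in the others. ND3 was at 72.8 and 94.99 CPM in their β-cells and 79.4 and 73.5 CPM in their α-cells, against at least 820 and 556 CPM in the others. CYTB, ND1, ND4 and ND6 of the same monkeys lay within the range of the others.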
